A study of Mus musculus with 18 samples.

Results

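Nrf2 antioxidant genes and Ppif were followed in regulatory T (Treg) cells of 6 mouse genotypes with altered expression of the miR-23 microRNA cluster. The set held 8 genes, taken by name from the 23953 entries of an RNA sequencing table: the Nrf2 gene Nfe2l2, the genes Osgin1, Gsta4, Gsto1, Hmox1, Gclm and Txnrd1, and the cyclophilin gene Ppif. The genes were picked with results of these libraries known, since Gsta4 and Ppif were among the large falls of miR-27 Tg cells against WT cells. Their differences in that comparison, and in the others that share the WT libraries, are therefore described without a p-value.

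All cells came from C57BL/6 mice and were sorted as CD4+CD25hi Treg cells, with 3 libraries per group and 18 in all. In 4 groups T cells carried extra microRNA: miR-27 Tg (miR-27 alone), cluster Tg (the whole cluster), miR-24 Tg (miR-24 alone) and miR-23 Tg (miR-23 alone). DKO cells had lost the miR-23a and miR-23b clusters by deletion in T cells, and control cells were wild type (WT). The labels write the genotypes of the last groups as DKO Tg and WT Tg, without saying whether WT mice carried Cre or another allele. The series title names CD4cre, a Cre that acts in T cells in general, so the Treg cells developed in mice whose other T cells were also altered. Age, sex and the number of animals are not given in the labels, so any p-value covers only the spread of the samples at hand, which may be technical.

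Nrf2 is a transcription factor that the adaptor Keap1 holds back by directing its breakdown. Under oxidative or electrophilic stress Nrf2 escapes, pairs with a small Maf protein and activates genes that carry an antioxidant response element, among them enzymes of glutathione and thioredoxin metabolism and heme oxygenase. Ppif encodes cyclophilin D, a mitochondrial peptidyl-prolyl isomerase that promotes opening of the permeability transition pore, which oxidative stress also triggers. A microRNA guides a silencing complex to messages that pair with its seed, bases 2 to 8 from its 5′ end, mostly in the 3′ UTR.

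The mature sequences from RefSeq (GRCm38.p6) of the miR-23a cluster on chromosome 8 show what the overexpressed microRNAs share. Capitals mark the seed.
mmu-miR-27a-3p: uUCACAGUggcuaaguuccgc
mmu-miR-23a-3p: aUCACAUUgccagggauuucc
mmu-miR-24-3p: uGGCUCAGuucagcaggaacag
The seeds of miR-27a and miR-23a differ in 1 base, and that of miR-24 has another sequence. The labels do not say which of the a and b forms was overexpressed.

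Matches to the seeds were searched in the longest annotated 3′ UTR of each gene (GENCODE, GRCm38): ACTGTGA for miR-27, AATGTGA for miR-23 and CTGAGCC for miR-24. A miR-27 match lay in 4 of the 8 genes, against 17.0% of the 10174 tested genes with an annotated 3′ UTR. A miR-23 match lay in 2 of 8 (16.3% of tested genes) and a miR-24 match in 1 of 8 (19%). Because the genes were picked with results of these libraries known, nothing is read from these counts. The genes with a miR-27 match were Nfe2l2, Osgin1, Gsto1 and Ppif. The windows are printed on the strand of the gene, with the match in capitals.
Nfe2l2 chr2:75675884-75675912, minus strand: taaaacttcctACTGTGAtgtgaaatgca
Osgin1 chr8:119445298-119445326, plus strand: ttcgggcaggcACTGTGAacccaacctca
Gsto1 chr19:47864719-47864747, plus strand: catgtctgaaaACTGTGAtttccccatac
Ppif chr14:25700160-25700188, plus strand: ccctcctggtcACTGTGAatcctgctggc
In Osgin1 and Ppif the match was followed by an A, a context present for 6.2% of tested genes. The match began 60 bases after the stop codon in Nfe2l2, in a 3′ UTR of 448 bases, and 320 bases after it in Osgin1, of 1267 bases. It began at base 280 of 340 in Gsto1 and at base 569 of 866 in Ppif. A match is a description of the letters and does not show that the site is used.

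Ppif held 2 miR-23 matches after its miR-27 match, at bases 667 and 835 of the 3′ UTR, and 4.45% of tested genes had matches of both kinds.
Ppif chr14:25700258-25700286, plus strand: tctttctgctcAATGTGAattcccgtggt
Ppif chr14:25700426-25700454, plus strand: tgttcatctcaAATGTGAtaaataaatcc
Hmox1 held the miR-24 match, at base 274 of 570, and Txnrd1 a miR-23 match at base 1637 of 1667. Neither gene held a miR-27 match. The log2 difference from WT was 1.08 ± 0.39 (SE) for Hmox1 in miR-24 Tg and -0.09 ± 0.10 for Txnrd1 in miR-23 Tg. Both windows are printed in the same way.
Hmox1 chr8:75100282-75100310, plus strand: aagcagctgttCTGAGCCcagtgcccatg
Txnrd1 chr10:82897671-82897699, plus strand: ttctggaaaaaAATGTGAaccaataaaag
The 170 bases of 3′ UTR of Gsta4 and the 4335 bases of that of Gclm held none of the 3 matches.

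**Figure D1:**
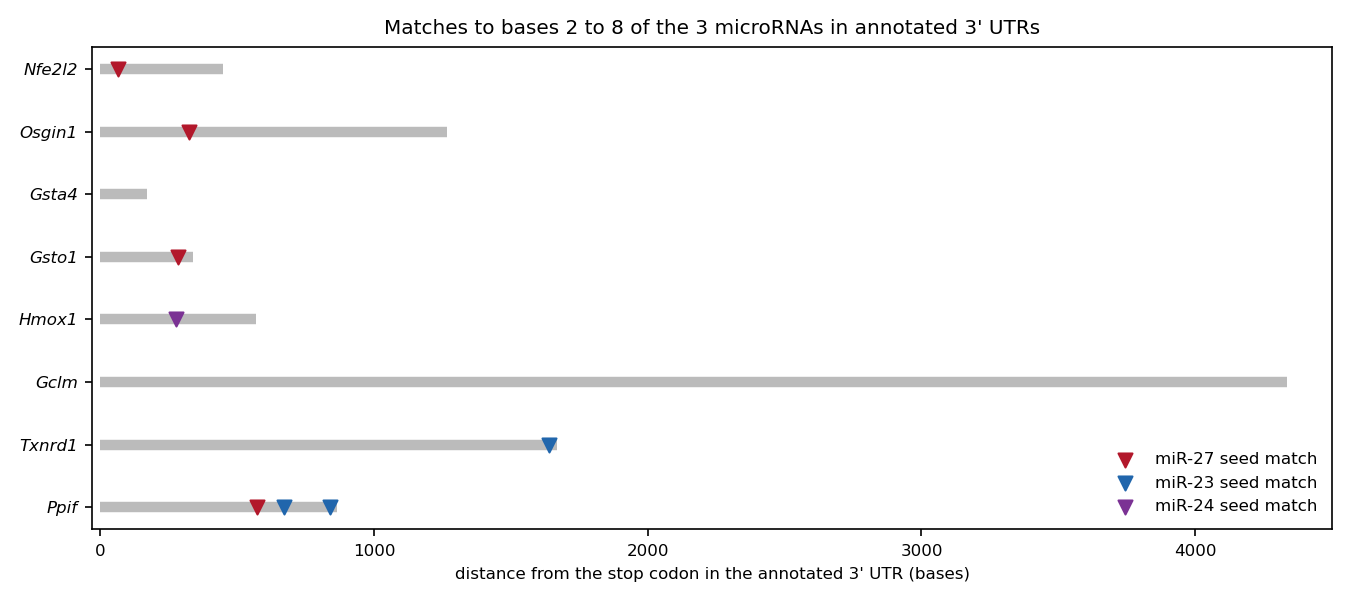
The annotated 3′ UTR of each gene is drawn to scale as a grey bar, with the distance from the stop codon in bases on the horizontal axis and triangles for seed matches. Red triangles (miR-27) lie in Nfe2l2, Osgin1, Gsto1 and Ppif, blue ones (miR-23) in Txnrd1 and Ppif, a purple one (miR-24) in Hmox1, and none in Gsta4 and Gclm.

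The libraries were checked before the 8 genes were compared. Depth, estimated from the steps between low values, was 20.71 to 32.22 megareads per library, and 10710 to 11121 genes reached 1 RPKM (reads per kilobase, scaled to library size). The Treg markers Foxp3 (196.6 to 347.6 RPKM) and Il2ra (155.0 to 255.1 RPKM) were high in every library. So were the T cell genes Cd3e (249.1 to 369.7 RPKM) and Cd4 (275.8 to 445.3 RPKM). Foxp3 was lowest in miR-27 Tg replicate 3. Of 8 T cell and Treg markers, limma called only Cd4 in miR-27 Tg against WT (1.32-fold higher, limma adjusted p = 0.009766). The same held in cluster Tg against WT (1.35-fold, limma adjusted p = 0.007759). Reads at Mir27a lay between 50010 and 79110 RPKM in miR-27 Tg libraries and between 13710 and 24080 RPKM in cluster Tg libraries, and the locus was listed at 0 in each DKO library. WT libraries had 346.7, 145.0 and 0 RPKM there, so a value of 0 does not tell a DKO library from a WT library. Markers of other cells were also present: the summed RPKM of 11 B cell markers was 57.7 to 129.4 in miR-27 Tg libraries and 46.6 to 68.3 in WT libraries, and 9 of 10 tested were higher and 1 lower at a limma adjusted p under 0.05. In miR-24 Tg libraries that sum was 79.2 to 136.6, and 6 of 10 were higher and 0 lower than in WT. Plasma cell markers (summed RPKM of 9.79 to 107.0 in miR-27 Tg and 2.12 to 3.58 in WT) had 2 of 4 tested higher in miR-27 Tg, with the joining chain gene Igj 23.6-fold (limma adjusted p = 0.002032). CD8 and NK cell markers (23.5 to 51.7 in miR-27 Tg and 18.6 to 19.9 in WT) had 4 of 6 higher, with Klrd1 9.66-fold (limma adjusted p = 0.00213), and myeloid markers (363.4 to 459.6 in miR-27 Tg and 370.0 to 395.8 in WT) had 5 of 13 higher, with the lysozyme gene Lyz2 5.38-fold (limma adjusted p = 0.01588), and 0 markers of these 3 lists were lower. Erythroid markers summed to 2.63 to 179.6 RPKM in miR-27 Tg, 3.97 to 73.7 RPKM in miR-24 Tg and 11.1 to 41.2 RPKM in miR-23 Tg libraries. Cluster Tg libraries had 2.11 to 11.5 RPKM, DKO libraries 0.291 to 4.91 RPKM and WT libraries 1.20 to 23.1 RPKM. Of 5 tested, 0 were called in miR-27 Tg against WT. The part of all these cells in the results below was not tested. Macrophage markers stood apart in miR-24 Tg replicate 1 and miR-27 Tg replicate 3, as given beside Hmox1 below. In bulk RNA, fewer cells of a type and less RNA per cell cannot be told apart. Each of the 8 genes exceeded 1 RPKM in all 18 libraries, so all 8 entered the tests over 11520 genes without help from a group in which they were high.

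In miR-27 Tg cells, 4 of the 8 genes were lower than in WT cells: Gsta4, Osgin1, Ppif and Gsto1, between 2.35-fold and 4.65-fold. Another 2, Hmox1 and Txnrd1, were higher, and Nfe2l2 and Gclm differed from WT by less than their SE. A gene is called here when its limma p-value, adjusted over all tested genes by the Benjamini-Hochberg method, is under 0.05. In this comparison 12.7% of tested genes were called lower and 15.9% higher, 28.6% in all, and 20.1% were lower and 22.8% higher without overlap between groups. The genes were picked from this comparison, so nothing is read from their counts. Where a call of one of the 8 genes is given in this or another comparison with WT, it says only on which side of the threshold the gene lay and is not a test of it. Folds are on the log2(RPKM + 0.5) scale, which understates changes of low genes.

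Nfe2l2, the gene of the regulator itself, lay between 12.1 and 20.7 RPKM over the 18 libraries, a range of 1.72-fold, against 1.45-fold for Gclm and 8.80-fold for Gsta4. It had 16.8, 17.2 and 15.9 RPKM in miR-27 Tg libraries and 17.3, 15.3 and 14.4 RPKM in cluster Tg libraries. It had 20.5, 18.9 and 18.4 RPKM in miR-24 Tg libraries and 12.96, 15.3 and 12.1 RPKM in miR-23 Tg libraries. DKO libraries had 19.9, 18.3 and 20.7 RPKM, and WT libraries 15.8, 15.1 and 16.6 RPKM. The miR-27 Tg and cluster Tg ranges overlapped that of WT, while every miR-24 Tg and DKO library lay above every WT library. The log2 difference from WT was 0.07 ± 0.09 (SE) in miR-27 Tg, -0.02 in cluster Tg, 0.28 in miR-24 Tg, -0.23 in miR-23 Tg and 0.30 in DKO, with the same SE. In order of the mean, DKO and miR-24 Tg came first with overlapping ranges, miR-27 Tg, WT and cluster Tg overlapped next to each other, and miR-23 Tg was last, overlapping cluster Tg.

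Osgin1 encodes an oxidative-stress-induced growth inhibitor. It had 8.29, 6.73 and 6.19 RPKM in miR-27 Tg libraries and 4.85, 6.52 and 5.92 RPKM in cluster Tg libraries. It had 8.97, 9.997 and 6.98 RPKM in miR-24 Tg libraries, and 16.1, 15.4 and 14.2 RPKM in miR-23 Tg libraries. DKO libraries had 21.4, 21.9 and 22.8 RPKM, and WT libraries 21.8, 22.0 and 17.5 RPKM. Every library of the 4 overexpressing groups lay below every WT library, and DKO overlapped WT. Osgin1 was 2.77-fold lower in miR-27 Tg than in WT (log2 -1.47 ± 0.14, SE), 3.35-fold lower in cluster Tg and 2.30-fold lower in miR-24 Tg. The difference of miR-23 Tg from WT was -0.41 on the log2 scale and was not called.

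Gsta4 encodes a glutathione S-transferase that conjugates 4-hydroxynonenal, a product of lipid peroxidation, and lies on chromosome 9 from 78191966 to 78209349 (GRCm38). It had 8.77, 10.3 and 7.35 RPKM in miR-27 Tg libraries, and 6.09, 15.04 and 32.0 RPKM in cluster Tg libraries. It had 11.2, 12.1 and 18.3 RPKM in miR-24 Tg libraries, and 26.8, 34.0 and 35.2 RPKM in miR-23 Tg libraries. DKO libraries had 33.7, 31.5 and 40.6 RPKM, and WT libraries 38.3, 36.9 and 53.6 RPKM. No library of the overexpressing groups reached the lowest WT library, but the cluster Tg libraries were far apart, and that of replicate 3 lay within the miR-23 Tg range. Gsta4 was 4.65-fold lower in miR-27 Tg than in WT (log2 -2.22 ± 0.40, SE), 2.87-fold lower in cluster Tg and 3.05-fold lower in miR-24 Tg.

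The spread of Gsta4 in cluster Tg cells decided the size of its difference. Without cluster Tg replicate 1 its log2 difference from WT was -0.93, and without cluster Tg replicate 3 it was -2.08, against -1.52 with all 3. The call was lost without WT replicate 3 (-1.35) and in a fit of these groups alone. Reads at Mir27a in the same cluster Tg libraries were 24080, 18300 and 13710 RPKM, so the library with the most reads at that locus had the least Gsta4. Reads at Mir23a and Mir24-2 fell in the same order over these libraries. In miR-27 Tg libraries, reads at Mir27a were 76990, 79110 and 50010 RPKM, and the library with the most reads had the most Gsta4. The part of the transgene level in the spread was not tested. In miR-24 Tg against WT the Gsta4 call was also lost without miR-24 Tg replicate 1 (log2 -1.48) or 2 (-1.53), or WT replicate 1 (-1.68) or 3 (-1.44).

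Gsto1 encodes an omega-class glutathione transferase that reduces mixed disulfides. It had 23.3, 26.4 and 19.6 RPKM in miR-27 Tg libraries and 22.6, 25.4 and 28.5 RPKM in cluster Tg libraries. It had 35.7, 33.9 and 38.6 RPKM in miR-24 Tg libraries, and 34.7, 35.6 and 35.6 RPKM in miR-23 Tg libraries. DKO libraries had 50.7, 46.8 and 50.7 RPKM, and WT libraries 54.1, 53.2 and 56.4 RPKM. Without overlap in between, miR-27 Tg and cluster Tg libraries lay lowest, miR-24 Tg and miR-23 Tg next, then DKO, and WT highest. Gsto1 was 2.35-fold lower in miR-27 Tg than in WT (log2 -1.23 ± 0.10, SE), 2.13-fold lower in cluster Tg, 1.51-fold lower in miR-24 Tg and 1.54-fold lower in miR-23 Tg.

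Ppif had 10.1, 8.12 and 8.98 RPKM in miR-27 Tg libraries and 8.77, 9.94 and 8.92 RPKM in cluster Tg libraries. It had 25.9, 23.98 and 22.5 RPKM in miR-24 Tg libraries, and 19.9, 18.6 and 20.2 RPKM in miR-23 Tg libraries. DKO libraries had 28.5, 32.8 and 33.9 RPKM, and WT libraries 25.8, 23.1 and 24.8 RPKM. All 6 libraries with extra miR-27 lay below all other libraries, miR-24 Tg overlapped WT, and DKO lay above every other group. Ppif was 2.63-fold lower in miR-27 Tg than in WT (log2 -1.39 ± 0.09, SE) and 2.58-fold lower in cluster Tg. Its log2 difference from WT was -0.03 in miR-24 Tg, -0.32 in miR-23 Tg and 0.36 in DKO, none of them called. Of the 5044 exonic bases of Ppif, 921 overlap the antisense gene Ppifos, whose own level was 2.08 to 4.67 RPKM, and the counting is not stated to use strand, so reads of the pair there cannot be told apart.

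**Figure D2:**
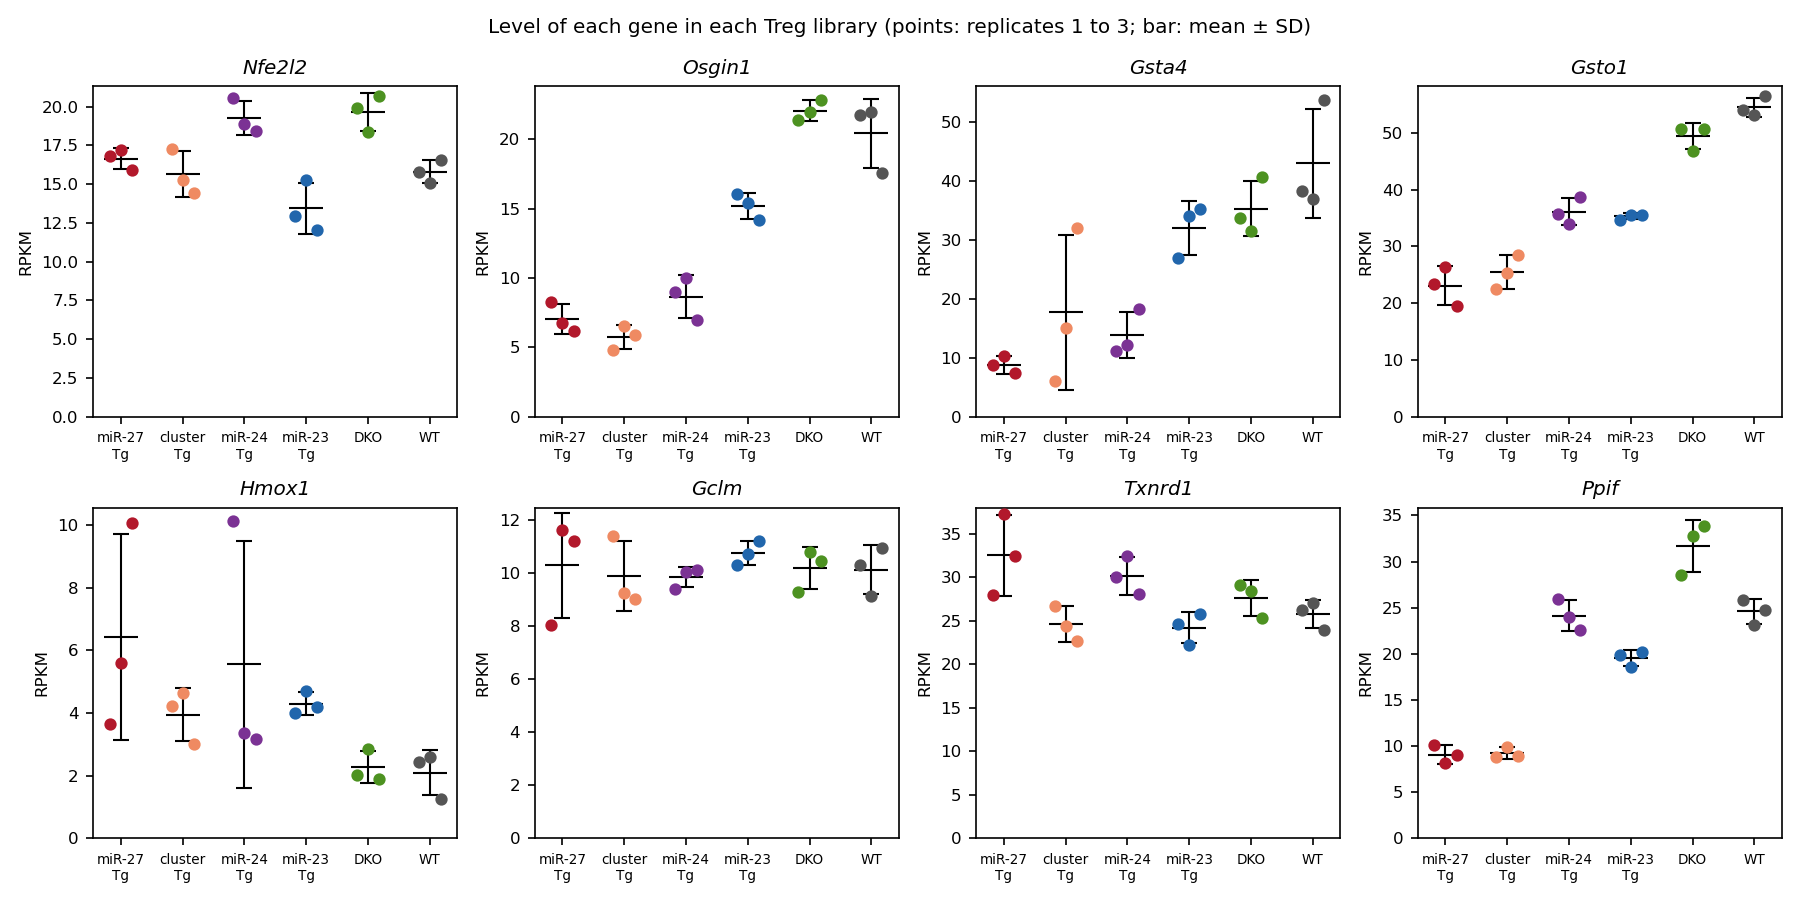
RPKM of each gene (vertical axis, from 0) is plotted for the 6 genotypes (horizontal axis), with a point for each of the 3 libraries and a bar for the mean ± SD. Ppif, Gsto1 and Osgin1 lie low in miR-27 Tg and cluster Tg libraries, Gsta4 is spread from 6.09 to 32.0 RPKM in cluster Tg, and Gclm is level across genotypes.

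Hmox1 encodes heme oxygenase 1, the inducible enzyme that breaks down heme to biliverdin, iron and carbon monoxide, and it is abundant in macrophages that recycle red blood cells. It had 3.65, 5.6 and 10.1 RPKM in miR-27 Tg libraries and 4.21, 4.62 and 2.99 RPKM in cluster Tg libraries. It had 10.1, 3.36 and 3.17 RPKM in miR-24 Tg libraries, and 4.01, 4.71 and 4.18 RPKM in miR-23 Tg libraries. DKO libraries had 2.03, 2.85 and 1.91 RPKM, and WT libraries 2.45, 2.59 and 1.26 RPKM. All 12 libraries with extra microRNA lay above all 6 others. Hmox1 was 2.55-fold higher in miR-27 Tg than in WT (log2 1.35 ± 0.39, SE), and 1.74-fold, 2.11-fold and 1.90-fold in cluster Tg, miR-24 Tg and miR-23 Tg, where it was not called.

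Markers of iron-recycling macrophages were, like Hmox1, higher in every library with extra microRNA than in every DKO and WT library. Within groups their order was that of Hmox1 in miR-27 Tg. In cluster Tg and miR-23 Tg, replicate 1 had the highest sum and replicate 2 the most Hmox1. The summed RPKM of Vcam1, Spic, Cd5l, Cd163, C1qa, C1qb, C1qc and Marco was 8.03, 13.5 and 29.1 in miR-27 Tg libraries, and 8.62, 5.29 and 5.48 in cluster Tg libraries. It was 44.1, 1.97 and 6.08 in miR-24 Tg libraries, and 6.29, 5.67 and 2.63 in miR-23 Tg libraries. DKO libraries had 0.747, 1.39 and 0.735, and WT libraries 1.79, 1.70 and 0.916. The 2 libraries with the most Hmox1, miR-24 Tg replicate 1 and miR-27 Tg replicate 3, were also those with the highest sums. Of the 8 markers, 4 passed the filter on low values, and Vcam1, C1qa and C1qc were called higher in miR-27 Tg than in WT. The defining markers Spic, Cd5l and Cd163 were below the filter and listed at 0 in 4, 2 and 3 of the 18 libraries.

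Without miR-27 Tg replicate 3 the log2 difference of Hmox1 between miR-27 Tg and WT was 0.996 and was no longer called, and without WT replicate 3 it was 1.09, likewise not called, as in a fit of these groups alone. In miR-24 Tg it was 0.58 without replicate 1, against 1.08 with all 3 libraries. When both libraries were left out at once, the miR-27 Tg difference was called again, at 0.996. Cluster Tg and miR-23 Tg libraries, with marker sums of 8.62 or less but above every WT library, also had Hmox1 above every WT library. So had miR-24 Tg replicate 2, at a sum of 1.97 and 3.36 RPKM of Hmox1, where the highest WT sum was 1.79. The part of RNA from macrophages or from the other cells whose markers were high in the same libraries was not tested for Hmox1.

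**Figure D3:**
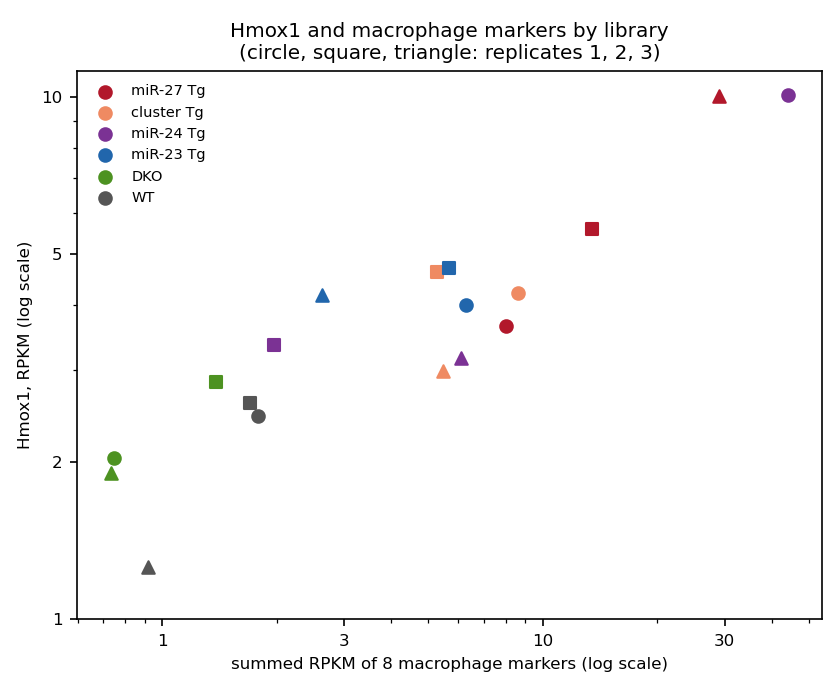
Hmox1 (vertical axis, RPKM) is plotted against the summed RPKM of 8 macrophage markers (horizontal axis), both on log scales, with a point per library. The miR-24 Tg replicate 1 and miR-27 Tg replicate 3 libraries lie at the upper right, at sums of 44.1 and 29.1, and the DKO and WT libraries at the lower left, at sums of 1.79 or less.

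Txnrd1 encodes cytosolic thioredoxin reductase. It had 27.9, 37.3 and 32.4 RPKM in miR-27 Tg libraries and 26.8, 24.4 and 22.7 RPKM in cluster Tg libraries. It had 29.98, 32.4 and 28.1 RPKM in miR-24 Tg libraries, and 24.6, 22.2 and 25.8 RPKM in miR-23 Tg libraries. DKO libraries had 29.2, 28.4 and 25.3 RPKM, and WT libraries 26.2, 27.03 and 23.9 RPKM. Every miR-27 Tg library and every miR-24 Tg library lay above every WT library, the lowest of them narrowly. Between group means the difference from WT was 1.25-fold in miR-27 Tg (log2 0.33 ± 0.10, SE) and 1.17-fold in miR-24 Tg, and the second was not called. The miR-27 Tg call was lost without miR-27 Tg replicate 2 (log2 0.22) or 3 (0.32), or WT replicate 1 (0.34) or 3 (0.28), in a fit of these groups alone, and with both libraries of high macrophage markers left out. The proliferation gene Mki67, at 31.9, 82.7 and 71.7 RPKM in miR-27 Tg libraries and 5.69, 11.8 and 10.4 RPKM in WT libraries, ordered the miR-27 Tg libraries as Txnrd1 did. Mki67 was also above every WT library in cluster Tg (28.1 to 31.1 RPKM), miR-23 Tg (22.3 to 25.7 RPKM) and miR-24 Tg (12.5 to 25.1 RPKM). Txnrd1 averaged 24.6, 24.2 and 30.15 RPKM in these groups, in that order, against 25.7 RPKM in WT. All 16 proliferation genes listed were called higher in miR-27 Tg than in WT, and their part in the Txnrd1 level was not tested.

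Gclm encodes the modifier subunit of glutamate-cysteine ligase, which makes the first step of glutathione synthesis. Its 18 values lay between 8.02 and 11.6 RPKM, a range of 1.45-fold. It had 8.02, 11.6 and 11.2 RPKM in miR-27 Tg libraries, against 10.3, 9.14 and 10.9 RPKM in WT libraries, and the groups overlapped. The log2 difference from WT lay between -0.04 in cluster Tg and 0.08 in miR-23 Tg, with an SE of 0.12. For miR-27 Tg its 95% interval was -0.26 to 0.27, so differences of that size were not detectable with these libraries. The gene shares 296 exonic bases with Gm17494 on the other strand and 244 with the pseudogene Gm6061.

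**Figure D4:**
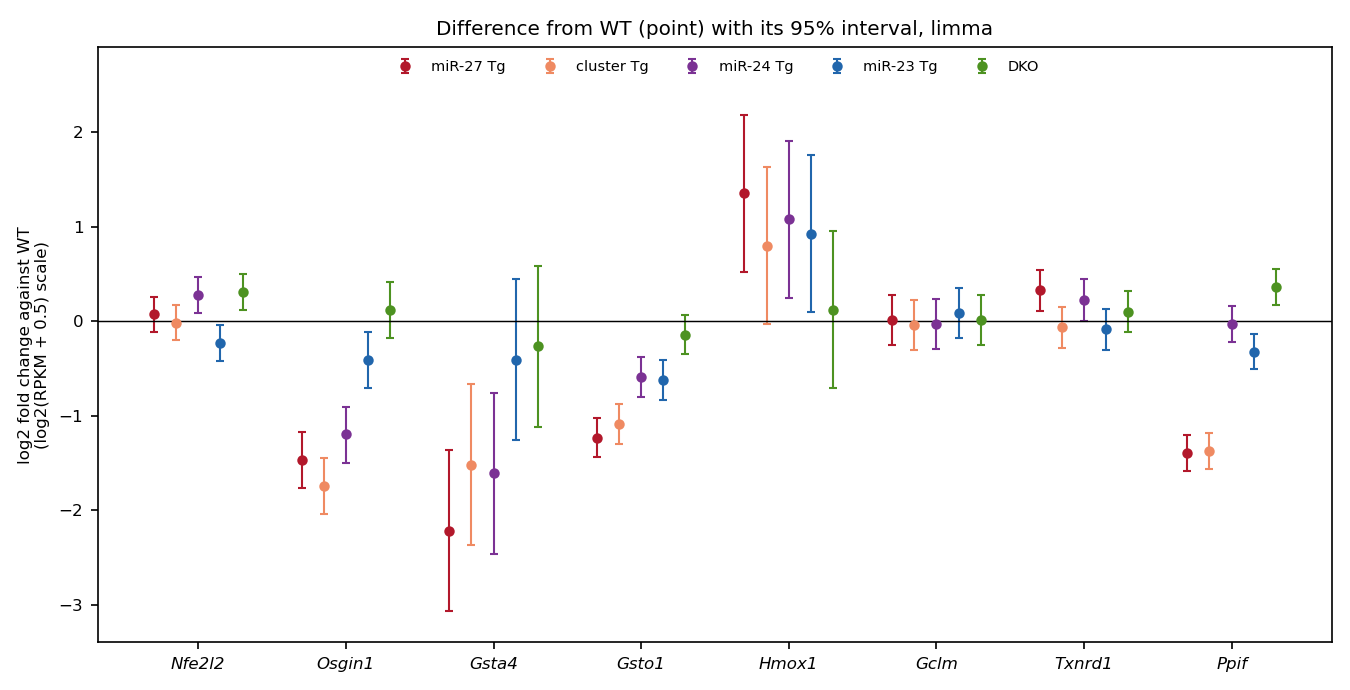
The log2 fold change of each gene against WT (vertical axis) is drawn for the 5 genotypes as a point with its 95% interval from limma. Osgin1, Gsta4, Gsto1 and Ppif lie below 0 in miR-27 Tg and cluster Tg, Ppif lies at -0.03 in miR-24 Tg, and Hmox1 lies above 0 in all 4 overexpressing groups.

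In the other comparisons with WT the counts of the 8 genes are descriptions as well, because the WT libraries took part in the choice of the genes, and nothing is read from them against the shares of all tested genes. Cluster Tg had 4 of the 8 genes lower and 0 higher, where 10.5% of tested genes were called lower and 13.8% higher. They were Osgin1, Gsta4, Gsto1 and Ppif. In miR-24 Tg, 3 were lower and 0 higher (4.38% and 4.6% of tested genes), namely Osgin1, Gsta4 and Gsto1. In miR-23 Tg, Gsto1 alone was called lower, against 0.2% of tested genes lower and 0.156% higher. That call was lost when any 1 library of miR-23 Tg or WT was left out, with log2 differences of -0.64 to -0.60. The shares in miR-23 Tg rest on 23 genes lower and 18 higher, and only 1 to 3 genes were called in each direction when any 1 of these libraries was left out. In DKO, Nfe2l2 and Ppif were higher and Gsto1 was lower without overlap with WT, as were 3.32% and 2.73% of tested genes, while limma called 0.0174% of tested genes in that comparison. All of these comparisons share the WT libraries.

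Cluster Tg cells were then set against DKO cells, the gain of the cluster against its loss. This comparison shares no library with miR-27 Tg against WT, but its earlier results were also known, so its p-values are not independent evidence. Osgin1, Ppif, Gsto1, Gsta4 and Nfe2l2 fell in cluster Tg, and none of the 8 rose, where 11.6% of tested genes were called lower and 15.1% higher, 26.7% in all.

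Ppif averaged 9.21 ± 0.64 RPKM in cluster Tg and 31.7 ± 2.8 RPKM in DKO (SD, n = 3 each). It fell 3.31-fold, with a log2 difference of -1.73 (95% interval -1.92 to -1.54, limma adjusted p = 1.234e-07). Osgin1 averaged 5.76 ± 0.85 RPKM in cluster Tg and 22.1 ± 0.74 RPKM in DKO and fell 3.62-fold (log2 -1.86, 95% interval -2.15 to -1.56, limma adjusted p = 2.301e-06). Gsto1 averaged 25.5 ± 3.0 RPKM in cluster Tg and 49.4 ± 2.3 RPKM in DKO and fell 1.93-fold (log2 -0.95, limma adjusted p = 2.502e-05). For these 3 genes every cluster Tg library lay below every DKO library, as for 16.8% of tested genes. Each of these calls held under every alternative and without each library in turn.

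Nfe2l2 averaged 15.7 ± 1.5 RPKM in cluster Tg and 19.7 ± 1.2 RPKM in DKO and fell 1.25-fold (log2 -0.32, limma adjusted p = 0.01504), without overlap. The call was lost when only these groups were fitted (adjusted p = 0.08251) and without cluster Tg replicate 3 (adjusted p = 0.05297). Gsta4 averaged 17.7 ± 13.2 RPKM in cluster Tg and 35.3 ± 4.7 RPKM in DKO, with overlap (log2 -1.25, limma adjusted p = 0.03108). The Gsta4 call was lost without a filter on low values (adjusted p = 0.05066), in a fit of these groups alone (adjusted p = 0.1729) and without any of 5 of the 6 libraries. Those were cluster Tg replicate 1 (log2 -0.66), cluster Tg replicate 2 (log2 -1.28) and DKO replicates 1, 2 and 3 (log2 -1.28, -1.33 and -1.15).

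Hmox1 averaged 3.94 ± 0.85 RPKM in cluster Tg and 2.26 ± 0.51 RPKM in DKO and did not pass (log2 0.68, 95% interval -0.15 to 1.51, limma adjusted p = 0.2078). With both libraries of high macrophage markers left out of the fit, which lie in neither group, its limma adjusted p was 0.04513. Gclm (log2 -0.05, 95% interval -0.31 to 0.22, limma adjusted p = 0.8203) and Txnrd1 (log2 -0.16, 95% interval -0.38 to 0.06, limma adjusted p = 0.253) did not pass either.

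A moderated F test asked whether each gene differed at all among cluster Tg, miR-24 Tg, miR-23 Tg and DKO, the groups outside miR-27 Tg against WT. The test takes in cluster Tg against DKO, and earlier results of these groups were known, so its p-values are not independent evidence either. It called 31.7% of tested genes and 5 of the 8, namely Ppif (limma adjusted p = 4.92e-07), Osgin1 (7.958e-06), Gsto1 (0.0001418), Nfe2l2 (0.001183) and Gsta4 (0.02458). Txnrd1 (limma adjusted p = 0.07184), Hmox1 (0.1929) and Gclm (0.7891) did not pass. The Gsta4 call was lost in a fit of these 4 groups alone (limma adjusted p = 0.06858), without miR-24 Tg replicate 1 (limma adjusted p = 0.05517) and with both libraries of high macrophage markers left out (limma adjusted p = 0.06578).

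Over the 18 libraries, Osgin1, Gsta4, Gsto1 and Ppif varied together in log2(RPKM + 0.5), with Pearson correlations between pairs from 0.65 (Gsta4 with Ppif) to 0.88 (Gsto1 with Ppif). Hmox1 ran against them, from -0.71 with Gsto1 to -0.48 with Ppif. Nfe2l2 correlated with Osgin1 at 0.04, with Gsto1 at 0.20, with Gsta4 at -0.21 and with Ppif at 0.34, and its highest correlation among the 8 genes was 0.43, with Txnrd1. These values describe 18 libraries in 6 groups that share genotype, and no p is given.

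Among 11519 other tested genes, those most like each gene over the 18 libraries were found by the same correlation. For Osgin1 they were Wnt3 (0.97), the actin-binding gene Lasp1 (0.96) and Trpc4ap (0.95), for Gsto1 Arhgap20 (0.95), Ahcyl2 (0.95) and Tnnt2 (0.94), and for Gsta4 Slc22a2 (0.96), Wdr82 (0.94) and Art4 (0.94). For Ppif they were the DNA polymerase iota gene Poli (0.96), Dnajb5 (0.96) and Guca1b (0.95). For Hmox1 they were Dnase1l3 (0.95), Themis2 (0.95) and the BAFF receptor gene Tnfrsf13c (0.94). These averaged 0.242, 0.302 and 0.745 RPKM in WT and 1.80, 2.56 and 3.47 RPKM in miR-27 Tg. Tnfrsf13c is known from B cells, and which cells gave the RNA of any of them was not tested. Those of Nfe2l2 were Ccng1 (0.83), Stx2 (0.82) and Zfp459 (0.78), those of Txnrd1 were Miat (0.82), Elmo1 (0.81) and Clasp2 (0.81), and those of Gclm were Ten1 (0.86), Myl12a (0.74) and Eif4a3 (0.71).

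The lists of related genes below are set against the shares of all tested genes called higher and lower, which were 15.9% and 12.7% in miR-27 Tg against WT, 13.8% and 10.5% in cluster Tg against WT, 4.6% and 4.38% in miR-24 Tg against WT, and 15.1% and 11.6% in cluster Tg against DKO. Most list counts are small and changed when a library was left out.

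Among the partners and regulators of Nrf2, 13 of 15 listed were tested. In miR-27 Tg against WT 2 rose and 1 fell (15.4% higher and 7.69% lower), with a median log2 difference of -0.09 (0.01 over all tested genes). Mafg, a small Maf partner of Nrf2, averaged 11.1 ± 1.0 RPKM in miR-27 Tg and 6.79 ± 0.61 RPKM in WT (1.59-fold, limma adjusted p = 0.002017). Keap1 rose 1.20-fold (31.8 ± 2.1 RPKM in miR-27 Tg and 26.4 ± 1.2 RPKM in WT, limma adjusted p = 0.03718). Bach1, a repressor that competes at antioxidant response elements, fell 1.30-fold (4.92 ± 0.09 RPKM in miR-27 Tg and 6.57 ± 0.90 RPKM in WT, limma adjusted p = 0.04086). Mafg also rose 1.41-fold in miR-24 Tg against WT (limma adjusted p = 0.03086), and none of the 13 was called in cluster Tg against WT or against DKO.

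Among other Nrf2 target genes, 26 of 37 listed were tested. In miR-27 Tg against WT 6 rose and 2 fell, a share of 23.1% higher and 7.69% lower against 15.9% and 12.7% of all tested genes, with a median log2 difference of 0.20 (0.01 over all tested genes). Nqo1, the quinone reductase often used as a readout of Nrf2, averaged 1.84 ± 0.79 RPKM in miR-27 Tg and 0.450 ± 0.140 RPKM in WT (2.39-fold, limma adjusted p = 0.001379). It reached 1 RPKM only in miR-27 Tg and cluster Tg libraries, so it passed the filter through groups in which it was high. Its calls, also within the counts of this list, are therefore a description and not a test. Srxn1, which encodes sulfiredoxin, averaged 2.40 ± 0.46 RPKM in miR-27 Tg and 0.869 ± 0.370 RPKM in WT (2.16-fold, limma adjusted p = 0.00646). Gss, the glutathione synthetase gene, rose 1.40-fold (limma adjusted p = 0.005381), while the epoxide hydrolase gene Ephx1 fell 1.51-fold (121.8 ± 19.6 RPKM in miR-27 Tg and 182.7 ± 11.3 RPKM in WT, limma adjusted p = 0.00192). Over the alternatives 4 to 11 of them rose, with 11 when miR-27 Tg replicate 1 was left out.

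In cluster Tg against WT 6 of these 26 rose and 1 fell, with a median of 0.13, and in cluster Tg against DKO 10 rose and 1 fell, with a median of 0.19 (0.03 over all tested genes). Srxn1 rose 2.67-fold in cluster Tg against WT (limma adjusted p = 0.001749), and the heme transporter gene Slc48a1 rose 1.45-fold against DKO (limma adjusted p = 0.0005337). G6pdx, the first enzyme of the pentose phosphate pathway, fell 1.49-fold against WT (limma adjusted p = 0.001516) and 1.55-fold against DKO (limma adjusted p = 0.000698). Against WT, 3 rose without cluster Tg replicate 1 or without WT replicate 1. Against DKO, 3 rose without cluster Tg replicate 1, 5 without DKO replicate 1, 6 without DKO replicate 2, and 2 in a fit of these groups alone. In miR-24 Tg against WT 1 rose (Srxn1, 2.43-fold, limma adjusted p = 0.008603) and 2 fell, among them G6pdx (1.61-fold, limma adjusted p = 0.00147). In miR-23 Tg and in DKO against WT limma called 0 genes of this list.

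Among genes beside Gsta4 and Gsto1 in glutathione metabolism, 21 of 28 listed were tested. In miR-27 Tg against WT 3 rose and 4 fell (14.3% higher and 19% lower), with a median log2 difference of -0.07. Without miR-27 Tg replicate 1, 6 rose. Gstt3, a theta-class transferase gene, rose 2.79-fold (7.63 ± 1.10 RPKM in miR-27 Tg and 2.41 ± 0.37 RPKM in WT, limma adjusted p = 4.617e-05). Glrx, the glutaredoxin gene, rose 1.93-fold (72.2 ± 10.4 RPKM in miR-27 Tg and 36.9 ± 2.6 RPKM in WT, limma adjusted p = 0.0001161). The mitochondrial and peroxisomal transferase gene Gstk1 fell 2.29-fold (3.92 ± 0.68 RPKM in miR-27 Tg and 9.58 ± 1.04 RPKM in WT, limma adjusted p = 0.0003645), and Hpgds, the hematopoietic prostaglandin D synthase gene, fell 2.21-fold (limma adjusted p = 0.0004343).

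Of these 21 genes, 5 rose in cluster Tg against WT, led by Gstt3 (2.70-fold, limma adjusted p = 8.003e-05) and Gstt2 (1.77-fold, limma adjusted p = 0.001188), and 2 fell. In miR-24 Tg 2 rose, Glrx (1.46-fold) and Gstt3 (1.65-fold), and 1 fell. In cluster Tg against DKO 4 rose and 3 fell, with Gstt3 higher by 3.13-fold and Gstk1 lower by 1.89-fold.

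Among genes of thioredoxin and superoxide metabolism, the setting of Txnrd1, 15 of 17 listed were tested. In miR-27 Tg against WT 1 rose and 4 fell (6.67% higher and 26.7% lower), namely the methionine sulfoxide reductase gene Msra (1.41-fold higher, limma adjusted p = 0.01258), the mitochondrial peroxiredoxin gene Prdx3 (1.26-fold lower, limma adjusted p = 0.01363), the thioredoxin inhibitor gene Txnip (1.58-fold lower, limma adjusted p = 0.02213), the mitochondrial thioredoxin gene Txn2 (1.21-fold lower, limma adjusted p = 0.02284) and Txnrd3 (log2 -0.56). Only 2 fell without miR-27 Tg replicate 1 or 3, or WT replicate 1 or 3. In cluster Tg against WT 3 rose and 1 fell, among them the mitochondrial superoxide dismutase gene Sod2 (1.29-fold higher, limma adjusted p = 0.002826) and Txnrd3 (1.88-fold lower, limma adjusted p = 0.001783). Against DKO cluster Tg gave the same counts, with Sod2 1.39-fold higher and Txnrd3 1.92-fold lower. In miR-24 Tg against WT 1 rose, Prdx6 (1.33-fold, limma adjusted p = 0.03958), and 0 fell.

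Genes of heme and iron handling, beside Hmox1, gave 2 rises and 0 falls among 8 tested of 11 listed in miR-27 Tg against WT (25% and 0%). They were the iron transporter gene Slc11a2 (1.23-fold, limma adjusted p = 0.01001) and the transferrin receptor gene Tfrc (1.31-fold, limma adjusted p = 0.02694). Against WT, 2 genes of the list rose and 1 fell in cluster Tg, among them Hmox2, the constitutive heme oxygenase gene (1.27-fold higher, limma adjusted p = 0.02202), and the iron-regulatory aconitase gene Aco1 (1.14-fold lower, limma adjusted p = 0.03865). Against DKO Hmox2 was 1.31-fold higher and Aco1 1.16-fold lower in cluster Tg, and no other gene of the list passed.

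Among the other cyclophilins, 2 of 15 tested rose and 1 fell in miR-27 Tg against WT (13.3% and 6.67%). Ppic, which encodes cyclophilin C of the secretory pathway, changed in the opposite direction to Ppif. It averaged 13.6 ± 0.5 RPKM in miR-27 Tg and 2.31 ± 0.59 RPKM in WT and rose 5.08-fold (limma adjusted p = 9.996e-07). It rose 3.61-fold in cluster Tg against WT (limma adjusted p = 1.129e-05), 2.12-fold in miR-24 Tg against WT (limma adjusted p = 0.001174) and 3.95-fold in cluster Tg against DKO (limma adjusted p = 3.436e-06). Ppil1 was 1.49-fold higher and Ppil4 1.31-fold lower in miR-27 Tg than in WT. In cluster Tg 3 rose and 1 fell, in each case, against WT and against DKO, with Nktr 1.31-fold lower than in WT and Ppib 1.40-fold higher than in DKO. Against WT only 1 rose without cluster Tg replicate 1 or WT replicate 1.

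Genes of candidate pore components and of mitochondrial calcium uptake gave 1 rise and 1 fall among 14 tested in miR-27 Tg against WT (7.14% each). Ccdc109b, the dominant-negative uniporter subunit Mcub, fell 1.56-fold (limma adjusted p = 0.001235) and 1.46-fold in miR-24 Tg against WT (limma adjusted p = 0.01014). In cluster Tg 3 rose and 1 fell against WT, with the uniporter regulator Micu2 1.26-fold higher (limma adjusted p = 0.00531). The same counts held against DKO, with Micu2 1.31-fold higher (limma adjusted p = 0.001775).

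**Figure D5:**
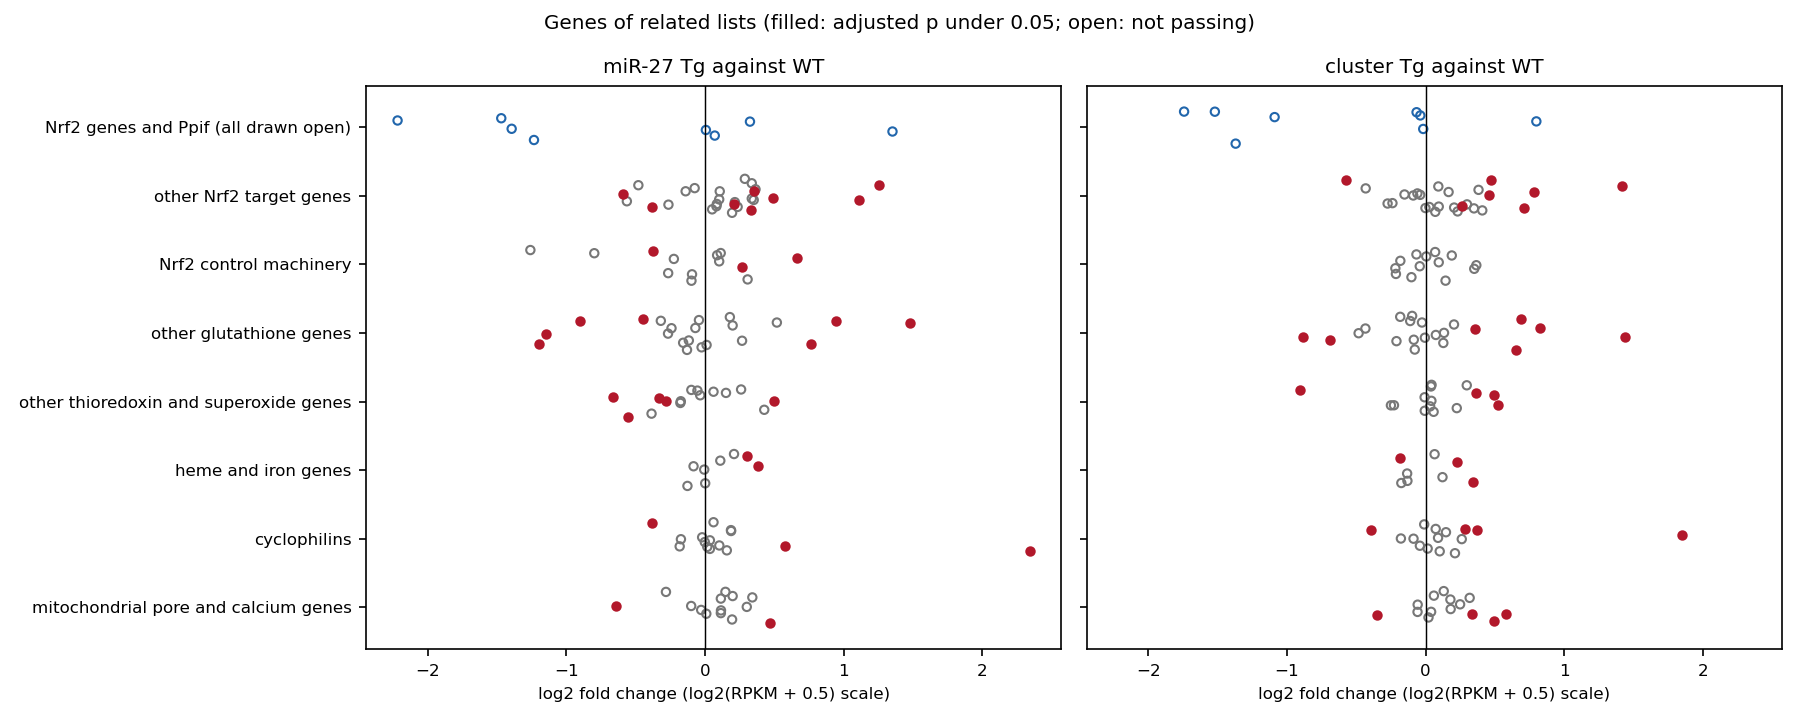
The log2 fold change (horizontal axis) of each tested gene is plotted by list (rows) for miR-27 Tg against WT (left) and cluster Tg against WT (right), with filled points for genes that passed and open points for those that did not. The 8 genes described here are drawn in open blue whether or not they passed, and reach from -2.22 to 1.35 in miR-27 Tg, and the filled cyclophilin point far to the right is Ppic.

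Promoters of 6 of the 8 genes were searched for the core of the antioxidant response element, TGACNNNGC, on both strands, in RefSeq windows from 250 bases before to 50 bases after the start (GRCm38.p6). The core was present in 12.4% of 32851 promoters. It lay in the windows of Nfe2l2, Gclm and 1 of the 3 windows of Txnrd1. The matches are shown on the strand of the gene, in capitals, those of Gclm and Txnrd1 in reverse orientation.
Nfe2l2 chr2:75704885-75704913, minus strand: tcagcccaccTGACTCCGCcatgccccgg
Gclm chr3:122245413-122245441, plus strand: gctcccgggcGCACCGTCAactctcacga
Txnrd1 chr10:82859104-82859132, plus strand: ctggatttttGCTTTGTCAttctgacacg
The match began 240 bases before the start in Nfe2l2, 134 before it in Gclm and 92 before it in Txnrd1. The letters were not found in the windows of Osgin1, Gsto1 and Ppif, and Gsta4 and Hmox1 were not searched. No match says only that the letters are not in the window.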

How the data were processed

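RNA of CD4+CD25hi Treg cells was sequenced in 18 libraries, 3 per genotype. The authors deposited 1 table of RPKM values for 23953 entries. STAR 2.2.0c, HOMER and mm10 (GRCm38) are named in the submitters' processing notes, without the step, annotation or strand setting behind the RPKM. The values keep whole-library scaling, so a few very abundant genes can lower all others. RPKM are not counts, and 26.9% to 33.3% of low values were within 0.03 of a whole read, so no count test was run.

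After 4 entries with repeated symbols were left out, genes that reached 1 RPKM in 3 or more libraries were fitted as log2(RPKM + 0.5) in 1 limma model with a mean-variance trend (limma 3.58.1, R 4.3.3), 11520 genes, with Benjamini-Hochberg adjustment within each comparison, two-sided. Tables and figures used Python 3.11.15, pandas 2.3.3 and matplotlib 3.10.9. The method was tested on simulated data. Replicates differed by more than counting error and were kept apart. The genes, lists, comparisons and alternatives were chosen with earlier results of these data known. Named genes were all 8, from each list the 4 genes or fewer with the smallest p in miR-27 Tg against WT and 2 or fewer in each other comparison among those that passed, and the 3 most alike per gene. A gene that the rule names is not reported here. Alternatives were pseudocounts of 0.1 and 1, median-of-ratios scaling, no filter, a fit of only the groups compared, a replicate block and leaving out each library. Leaving out both libraries with the highest macrophage markers was chosen after seeing the data.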

Additional observations from a re-analysis of the deposited data

How the results depend on the processing

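Of 624 log2 fold changes of the 8 genes recomputed under the alternatives, 608 were counted as unchanged. In cluster Tg against DKO this meant the same direction and the same side of the threshold. In comparisons with WT it meant a move of less than the replicate spread, with the same direction required only of called genes. Small differences that changed sign are therefore among the 608, such as Ppif in miR-24 Tg (-0.078 to 0.021 when each library was left out). The exceptions by this measure concern Gsta4, Nfe2l2 and Hmox1, given above, and Gclm. It leaves out calls against WT, which were lost for Hmox1 and Txnrd1 in miR-27 Tg, Gsta4 in cluster Tg and miR-24 Tg, and Gsto1 in miR-23 Tg, and gained for Hmox1 in cluster Tg. The log2 fold change of Gclm in cluster Tg against DKO was 0.013 without cluster Tg replicate 3, against -0.045 with all libraries, and lay between -0.147 and 0.013 when each library was left out.

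Counts of the 8 genes moved as follows. The 2 genes higher in miR-27 Tg than in WT became 0 when only the groups compared were fitted, 1 when both libraries with the highest macrophage markers were left out, and 0 to 2 when each library was left out. The 5 genes lower in cluster Tg than in DKO became 3 when only those groups were fitted. The 1 gene lower in miR-23 Tg than in WT became 0 in each leave-one-out fit. With both libraries of high macrophage markers left out, 1 gene was higher in cluster Tg than in WT and 1 was higher in cluster Tg than in DKO, against 0 with all libraries. The cause was not tested for these changes, apart from the smaller number of samples in each fit.

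Samples that shared a replicate number did not vary together (45 pairs, median correlation 0.00397, from -0.167 to 0.188, 6 of them over 0.1). With the replicate number as a block, 2 of the 8 genes were higher and 4 lower in miR-27 Tg against WT, and 5 were lower in cluster Tg against DKO, as without it, and no other call of the 8 changed. Over all genes, the block gave 38 higher and 38 lower in miR-23 Tg against WT, where the fit without it gave 18 and 23, and 1 higher in DKO against WT, against 2.

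Of 1248 counts of listed genes, 1096 stayed within 1.5 times the reported count. Those of the Nrf2 target genes among the other 152 are given above. Over all alternatives in miR-27 Tg against WT, 1 to 2 partners and regulators were higher and 0 to 2 lower, 3 to 6 glutathione genes were higher, 0 to 3 thioredoxin genes were higher and 1 to 5 lower, 0 to 3 heme genes were higher, 1 to 2 cyclophilins were higher and 1 to 2 lower, and 1 to 3 pore and calcium genes were higher. In cluster Tg against WT, 0 to 2 partners were higher, 1 to 3 glutathione genes lower, 1 to 3 thioredoxin genes higher, 0 to 2 heme genes higher and 0 to 1 lower, 1 to 3 cyclophilins higher and 0 to 2 lower, and 3 to 5 pore genes higher and 0 to 1 lower. Between cluster Tg and DKO, 0 to 1 partners were higher and 0 to 2 lower, 1 to 3 glutathione genes lower, 1 to 4 thioredoxin genes higher and 1 to 2 lower, 0 to 3 heme genes higher and 0 to 2 lower, 1 to 3 cyclophilins higher and 0 to 1 lower, and 2 to 5 pore genes higher and 0 to 1 lower. The single calls given for miR-24 Tg in the partner, glutathione, thioredoxin and pore lists were each lost in at least 1 alternative.

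Over all genes, 1592 higher and 1214 lower in cluster Tg against WT became 865 and 602 without cluster Tg replicate 1, and 782 lower without WT replicate 1. The 1734 higher and 1338 lower in cluster Tg against DKO became 1047 and 773 without cluster Tg replicate 1, and 837 and 521 in a fit of these groups alone. In miR-24 Tg against WT, 530 and 504 became 264 and 328 without miR-24 Tg replicate 1, 295 and 255 without WT replicate 1, 294 higher without WT replicate 2, 268 and 321 without WT replicate 3, and 284 and 271 in a fit of these groups alone. In miR-27 Tg against WT, 1464 lower became 965 without WT replicate 1. RPKM leave the exact depth behind each value unknown.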
